A study of Mus musculus with 18 samples.

Results

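The 6 cultures described here compared a stable 4T1 line that carried Wisp1 in a lentiviral vector with a stable 4T1 line that carried the empty vector (EV), both grown on tissue culture plastic, with 3 libraries per line. They are 6 of the 18 libraries of the series and were chosen by their titles, not by any measured value. 4T1 is a transplantable mammary carcinoma line of the mouse. Both lines were made by transduction and puromycin selection, grown in RPMI with fetal calf serum, and lysed while subconfluent, and neither received TGFb1 here. The other libraries were untransduced parental cells with and without TGFb1, and the same EV and Wisp1 lines on collagen type I, with 3 libraries in each group. Each genotype was represented by 1 selected line, so an effect of Wisp1 and any other difference between the EV and the Wisp1 line cannot be told apart, and the 3 cultures of a line measure the spread between cultures. The labels do not say which promoter drove Wisp1, whether the insert was of mouse sequence, or whether the lines were clones.

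Wisp1, also named Ccn4, is a CCN family gene whose secreted protein binds matrix and cell surface partners and is known as a target of Wnt signalling. A secreted, disulfide-bonded protein of this kind is folded in the endoplasmic reticulum (ER), where chaperones of the Hsp70 and Hsp90 families, lectin chaperones and protein disulfide isomerases act on new chains. When unfolded protein accumulates there, the sensors Atf6, Ern1 and Perk start the unfolded protein response, which raises the genes of those same chaperones.

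Gene counts per library were 41761010 to 77748072 in EV and 37552858 to 59568523 in Wisp1. Carcinoma epithelium markers were abundant in both lines: their summed level was 3621 to 4067 CPM (a gene's count relative to the size of its library, with library sizes scaled by the trimmed mean of M-values) in EV and 3595 to 4007 CPM in Wisp1, led by the keratin gene Krt8. Markers of leukocytes summed to 15.9 to 18.7 CPM in EV and 18 to 24.1 CPM in Wisp1, of which Cd14 alone gave 6.29, 6.11 and 5.76 CPM in EV and 6.65, 6.92 and 7.09 CPM in Wisp1. The lymphocyte and granulocyte genes Cd3e, Ly6g and Nkg7 had no count in any of the 6 libraries, and the pan-leukocyte gene Ptprc had 8 to 25 reads in each. Myeloid genes were counted in all 6. Lyz2 was at 4.82, 3.01 and 3.92 CPM in EV and 6.49, 7.9 and 4.49 CPM in Wisp1, and the lines overlapped. The macrophage gene Emr1 was at 0.361, 0.299 and 0.367 CPM in EV and 0.901, 1.01 and 0.526 CPM in Wisp1. For Emr1 the lines did not overlap, with Wisp1 higher, as in 6.5% of all genes tested. Neither gene passed the blocked test described below (adjusted p = 0.62 and 0.12). Csf1r, Cd68 and Tyrobp were also counted in all 6. The part of these cells in the results was not tested. Fibroblast markers summed to 30.7 to 52.4 CPM in EV and 25.8 to 35.7 CPM in Wisp1, nearly all of it from Pdgfra (18.8, 20.5 and 14.5 and 16.1, 18 and 15.4 CPM) and Postn (10.1, 13.3 and 35.1 and 7.79, 9.05 and 18.3 CPM), with Thy1 and Lum at 0. Endothelial markers summed to 5.16 to 5.88 and 5.38 to 5.51 CPM, nearly all of it from Egfl7, with Cldn5 and Emcn at 0.

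Wisp1 was the gene that separated the lines. Its level was 36.8, 46.4 and 72.1 CPM in the 3 EV libraries and 897, 908 and 1067 CPM in the 3 Wisp1 libraries. The lowest Wisp1 library was far above the highest EV library, so the groups did not overlap. Ranges that do not overlap were common, with Wisp1 above EV in 6.5% and below EV in 5.98% of all genes tested. Wisp1 rose 18.5-fold (4.21 ± 0.21 SE on the log2 scale with n = 3 per line, adjusted p = 3.1e-05 by edgeR's quasi-likelihood test with Benjamini-Hochberg adjustment). Counts per symbol do not separate transcripts of the vector from those of the cells' own gene. In parental cells Wisp1 stood at 22.3 ± 15.7 CPM (SD, n = 3) untreated and at 424.9 ± 166.9 CPM with 2 ng/mL TGFb1. The mean of the Wisp1 line on plastic, 957.2 ± 94.9 CPM, thus lay above the TGFb1-treated level, and the EV mean on plastic was 51.7 ± 18.2 CPM.

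**Figure D1:**
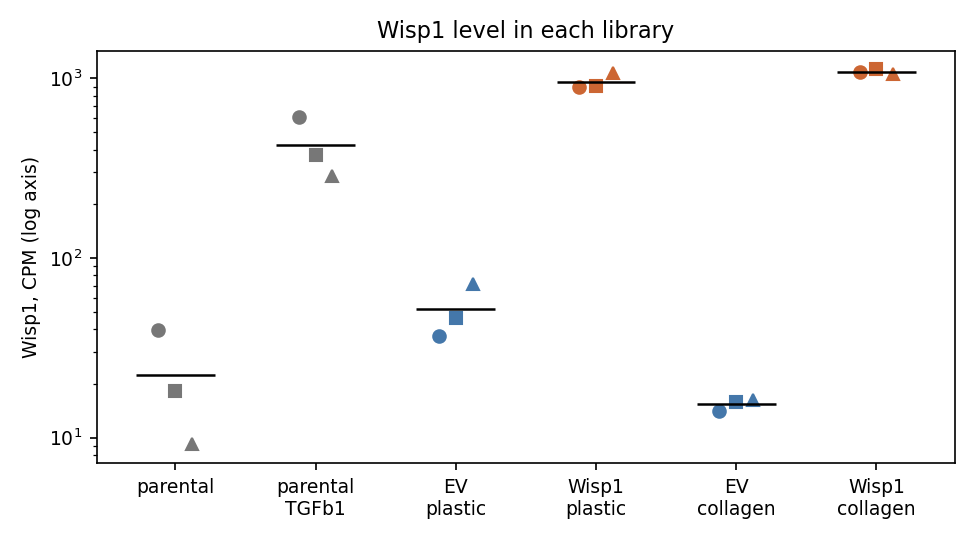
Wisp1 level of each of the 18 libraries in CPM on a log axis, by group, with the replicate number as the symbol (circle 1, square 2, triangle 3) and a line at the mean of each group. The 3 Wisp1 libraries on plastic lie between 897 and 1067 CPM and the 3 EV libraries on plastic between 36.8 and 72.1 CPM.

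Of the other CCN genes, none passed the test on plastic and Wisp3 was too low to be tested. In the blocked test described below Cyr61 did not pass with all pairs (adjusted p = 0.39). Without pair 3 it passed as higher (log2 change 0.21, adjusted p = 0.013). Ctgf, a matricellular gene of the same family, was at 167, 165 and 258 CPM in EV and 161, 161 and 220.1 CPM in Wisp1, and Cyr61 at 199, 158 and 304 and 223, 189 and 294 CPM. Both followed the replicate number more than the line, with the highest value of each line in replicate 3. Nov (0.916, 0.844 and 0.541 against 0.662, 0.602 and 0.386 CPM) and Wisp2 (0.169, 0.156 and 0.174 against 0.318, 0.465 and 0.298 CPM) were near the lower limit of detection.

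The comparison without regard to replicate number called 2 of 13953 genes at an adjusted p under 0.05, which is 0.0143% of the genes tested, both of them higher in Wisp1, while 822 had an unadjusted p under 0.05. The other called gene was BC068157, a clone-derived symbol, at 0.0241, 0.026 and 0.0386 CPM in EV and 0.238, 0.301 and 0.404 CPM in Wisp1. These values rest on 1, 2 and 2 reads in EV and 9, 11 and 23 reads in Wisp1 (adjusted p = 0.03), and its call was lost when any library other than Wisp1 replicate 1 was left out.

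Libraries that share a replicate number deviated together from the means of their lines, in all 3 pairs, so the lines were also compared within replicate number (the blocked fit). That fit called 440 genes, 3.15% of those tested. Of these 290 were higher (2.08%) and 150 lower (1.08%) in Wisp1, with a median fold of 1.11 among the called genes, so nearly every difference described from here on is small. The words rose and fell below refer to the blocked fit. Without the block the 75 genes that the naming rule took from the blocked calls alone had an adjusted p of 0.223 to 0.919, and none of them passed. A block by number shared between plastic and collagen called 2 genes, and there the 75 had an adjusted p of 0.12 to 0.873, so their calls rest on blocking the 2 substrates separately. The number of calls was 60 without pair 1, 53 without pair 2 and 365 without pair 3.

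The blocked change also moved with base composition: across 10197 genes it correlated with the GC content of the longest transcript (Spearman's rho 0.346, a description, since all genes come from the same 6 libraries). The rho was 0.344, 0.135 and 0.32 in pairs 1, 2 and 3. Genes called higher had a median GC content of 54.7% and genes called lower 45.1%, against 49.7% over all tested genes. With GC content and length smoothed out in each library, the blocked fit called 360 genes (2.58%), 218 higher (1.56%) and 142 lower (1.02%), and 255 of them were among the 440. Of these 75 genes 65 passed in that corrected fit too, and those that did not are given with that adjusted p below. A core of 25 of the 75, with 20 higher and 5 lower, passed in the corrected fit and also with any one pair left out.

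A set of ER chaperone and folding genes rose in the Wisp1 line. Of 33 tested genes of ER folding and the unfolded protein response, 13 rose and 0 fell, against 2.08% and 1.08% of all genes, and the 13 rises were 1.08-fold to 1.32-fold. The median log2 change of all 33 was 0.09, against 0.00 over all tested genes, and it was 0.12, 0.07 and 0.10 in pairs 1, 2 and 3. The 13 genes include the lumenal chaperones, several disulfide isomerases and small secreted ER proteins, while none of the sensor and transcription factor genes tested (Atf6, Ern1, Xbp1 and Ddit3) passed. The rise of several chaperone genes was known from earlier results of these data when the list was made, so the list is no independent evidence of its direction. Correcting for GC content and length left 13 rises and 0 falls, and leaving out pair 1, 2 or 3 left 11, 11 and 12 rises. Without pair 3 the ER oxidase gene Ero1l passed as lower (log2 change -0.24, adjusted p = 0.0027). The 20 members that did not pass had a median log2 change of 0.04, from -0.11 to 0.16, and 12 of them were above 0.

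Promoters of 6 of the ER genes that rose are shown because they carry the ER stress response element (ERSE). It is a sequence through which the unfolded protein response is known to act. Its letters, searched on both strands, were CCAAT, then any 9 bases, then CCACG. Of 32851 promoters in the RefSeq table (build GRCm38.p6, 250 bases before to 50 after each start) 39, or 0.119%, hold it. Among genes tested here 16 hold it and 6 of these rose (2.08% of all genes did), all 6 of them members of the ER list. None of the holders outside the ER list rose. As that list was made with the rise of several chaperone genes known, the 6 are no independent evidence of a role of the element. The 250 bases before the start of these 6 genes follow, 5′ to 3′ on the gene's strand, with the fixed letters of the element in capitals.
Hspa5 (chr2:34771840-34772089, plus strand): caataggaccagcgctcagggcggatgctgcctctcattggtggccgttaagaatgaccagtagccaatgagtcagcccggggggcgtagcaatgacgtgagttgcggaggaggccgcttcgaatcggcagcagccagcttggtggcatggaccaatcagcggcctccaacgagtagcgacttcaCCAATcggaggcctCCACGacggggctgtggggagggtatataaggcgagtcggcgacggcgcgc
Hsp90b1 (chr10:86705445-86705694, minus strand): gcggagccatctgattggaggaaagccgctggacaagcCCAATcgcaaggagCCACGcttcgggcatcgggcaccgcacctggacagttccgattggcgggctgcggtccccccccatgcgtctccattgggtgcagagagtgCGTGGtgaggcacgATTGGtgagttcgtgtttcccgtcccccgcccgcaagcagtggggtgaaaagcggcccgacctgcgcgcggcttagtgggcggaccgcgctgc
Calr (chr8:84846932-84847181, minus strand): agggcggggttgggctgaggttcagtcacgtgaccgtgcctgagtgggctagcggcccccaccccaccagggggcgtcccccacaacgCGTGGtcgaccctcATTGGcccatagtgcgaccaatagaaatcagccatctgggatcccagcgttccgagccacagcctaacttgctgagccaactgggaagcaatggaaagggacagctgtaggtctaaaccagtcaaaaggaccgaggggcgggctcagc
Pdia6 (chr12:17266339-17266588, plus strand): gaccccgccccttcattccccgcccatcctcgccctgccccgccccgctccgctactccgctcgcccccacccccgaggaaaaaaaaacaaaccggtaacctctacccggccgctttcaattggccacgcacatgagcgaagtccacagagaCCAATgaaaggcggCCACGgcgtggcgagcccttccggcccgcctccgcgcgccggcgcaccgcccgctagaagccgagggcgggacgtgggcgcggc
Dnajc3 (chr14:118937682-118937931, plus strand): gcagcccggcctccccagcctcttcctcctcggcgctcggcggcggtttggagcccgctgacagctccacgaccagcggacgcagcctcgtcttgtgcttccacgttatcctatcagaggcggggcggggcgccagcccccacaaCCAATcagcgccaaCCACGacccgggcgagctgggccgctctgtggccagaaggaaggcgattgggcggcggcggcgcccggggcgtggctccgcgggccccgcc
Creld2 (chr15:88819396-88819645, plus strand): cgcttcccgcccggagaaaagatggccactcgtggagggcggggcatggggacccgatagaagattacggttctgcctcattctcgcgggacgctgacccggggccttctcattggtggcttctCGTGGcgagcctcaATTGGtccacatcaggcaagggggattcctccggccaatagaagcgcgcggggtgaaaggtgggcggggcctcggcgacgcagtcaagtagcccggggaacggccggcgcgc

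In Hspa5, Pdia6 and Dnajc3 the element reads in the direction of the gene and begins 65, 98 and 105 bases before the start. In Calr and Creld2 it lies on the opposite strand, where the capitals read CGTGG and ATTGG. Hsp90b1 has a copy on each strand. The other ER list members that hold the element and were tested, Canx, Ero1lb and Syvn1, had log2 changes of 0.03, 0.15 and 0.08 and did not pass (adjusted p = 0.48, 0.26 and 0.26). Of the 18 tested ER members with a promoter in the table and without these letters, 5 rose. Hyou1 and Manf, which also rose, had no promoter in the table. A pair of other elements of the response was searched in the same way. The letters ATTGG, then any single base, then CCACG (ERSE-II) were held by 9 tested genes, of which 2 rose and 1 fell. TGACG directly followed by TGG (UPRE) was held by 100, of which 3 rose and 2 fell. Over all genes 2.08% rose and 1.08% fell, so the UPRE counts lay near these shares, and the median log2 change of the 100 was 0.0028. ERSE-II and the UPRE were in 0.0365% and 0.676% of all promoters. ER list members that rose numbered 1 of 2 with ERSE-II and 0 of 1 with the UPRE. A match describes the letters in this window and does not show that a factor was bound.

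Hspa5, which encodes the main Hsp70 chaperone of the ER (BiP), was the most abundant of the 13. Its level was 2023, 1950 and 2264 CPM in EV and 2380, 2292 and 2552 CPM in Wisp1, higher in each Wisp1 library than in every EV library. The rise was 1.16-fold (log2 change 0.21 ± 0.024 SE, adjusted p = 6.4e-05). Hsp90b1, the ER member of the Hsp90 family, was at 1083, 1032 and 1073 CPM in EV and 1254, 1216 and 1271 CPM in Wisp1. Again no EV library reached the lowest Wisp1 library, and the rise was 1.17-fold (log2 change 0.23 ± 0.024 SE, adjusted p = 2e-05). Hyou1, a large Hsp70 relative that exchanges nucleotide on BiP, rose 1.19-fold (adjusted p = 0.0003). The BiP cochaperones Dnajb11, Sdf2l1 and Dnajc3 rose 1.15-fold, 1.32-fold and 1.1-fold (adjusted p = 0.001, 0.00037 and 0.014). The call of Dnajc3 was lost without pair 1 and without pair 2.

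Sdf2l1 had the largest change of the list, from 17.5, 19.2 and 18.5 CPM in EV to 23.5, 24.9 and 24.8 CPM in Wisp1. Its 3 EV values lie close together and well under the 3 Wisp1 values. Calr, the lectin chaperone calreticulin, was at 732, 630.3 and 820.0 CPM in EV and 897, 840.1 and 1021 CPM in Wisp1. The EV and Wisp1 libraries of the same number keep their order, with replicate 2 lowest and replicate 3 highest in both lines, and the rise was 1.27-fold (log2 change 0.34 ± 0.028 SE, adjusted p = 1.4e-06). Its membrane-bound partner calnexin, Canx, was at 846, 815 and 891 and 866, 847 and 904 CPM and did not pass.

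Among the disulfide isomerases, Pdia6, Pdia4 and Pdia3 rose. Pdia4 was at 123, 119.8 and 131 CPM in EV and 145, 138 and 152 CPM in Wisp1, a 1.16-fold rise (adjusted p = 0.00014). Pdia6 rose 1.17-fold and Pdia3 1.12-fold (adjusted p = 6.5e-05 and 0.00083). Of their relatives, Pdia5 had a log2 change of 0.16, Txndc5 of 0.09, P4hb of 0.07, Erp29 of 0.05 and Erp44 of -0.02, and none passed (adjusted p = 0.084, 0.12, 0.16, 0.42 and 0.84). The oxidases of the isomerases, Ero1l and Ero1lb, did not pass either (log2 change -0.11 and 0.15, adjusted p = 0.62 and 0.26).

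Manf, which encodes a small ER protein that is secreted on stress, stood at 116, 108 and 128 CPM in EV and 142, 126 and 153 CPM in Wisp1. Each Wisp1 value was above the EV value of its number, but the lowest Wisp1 library lay under the highest EV library, and the rise was 1.19-fold (adjusted p = 6.5e-05). Creld2, another ER stress-inducible protein, rose 1.23-fold from 35.6, 33.4 and 39.9 to 45.1, 43 and 45.6 CPM (adjusted p = 0.00046). Ppib, the ER prolyl isomerase cyclophilin B, rose 1.08-fold (adjusted p = 0.013), and its call was lost without pair 1, without pair 2 and without pair 3.

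The regulators of the response that were on the list did not pass, and the gene of the sensor Perk was not on it. Xbp1 was at 60.8, 71.9 and 76.3 CPM in EV and 73.4, 73.1 and 75.6 CPM in Wisp1 (log2 change 0.09, adjusted p = 0.3), Atf6 had a log2 change of 0.04 and Ern1 of -0.05. Ddit3, the stress factor CHOP, was at 7.21, 9.81 and 6.75 and 6.3, 8.94 and 6.74 CPM (log2 change -0.11, adjusted p = 0.49). Genes of ER-associated degradation had log2 changes of -0.03 (Herpud1), 0.02 (Edem1), 0.08 (Syvn1), -0.04 (Sel1l), -0.01 (Derl1) and -0.05 (Derl2), none past the threshold. Dnajb9 (0.09) and Sil1 (0.06) did not pass, and Derl3 was too low to be tested. Gene counts do not measure the splicing of Xbp1 or the cleavage of Atf6.

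**Figure D2:**
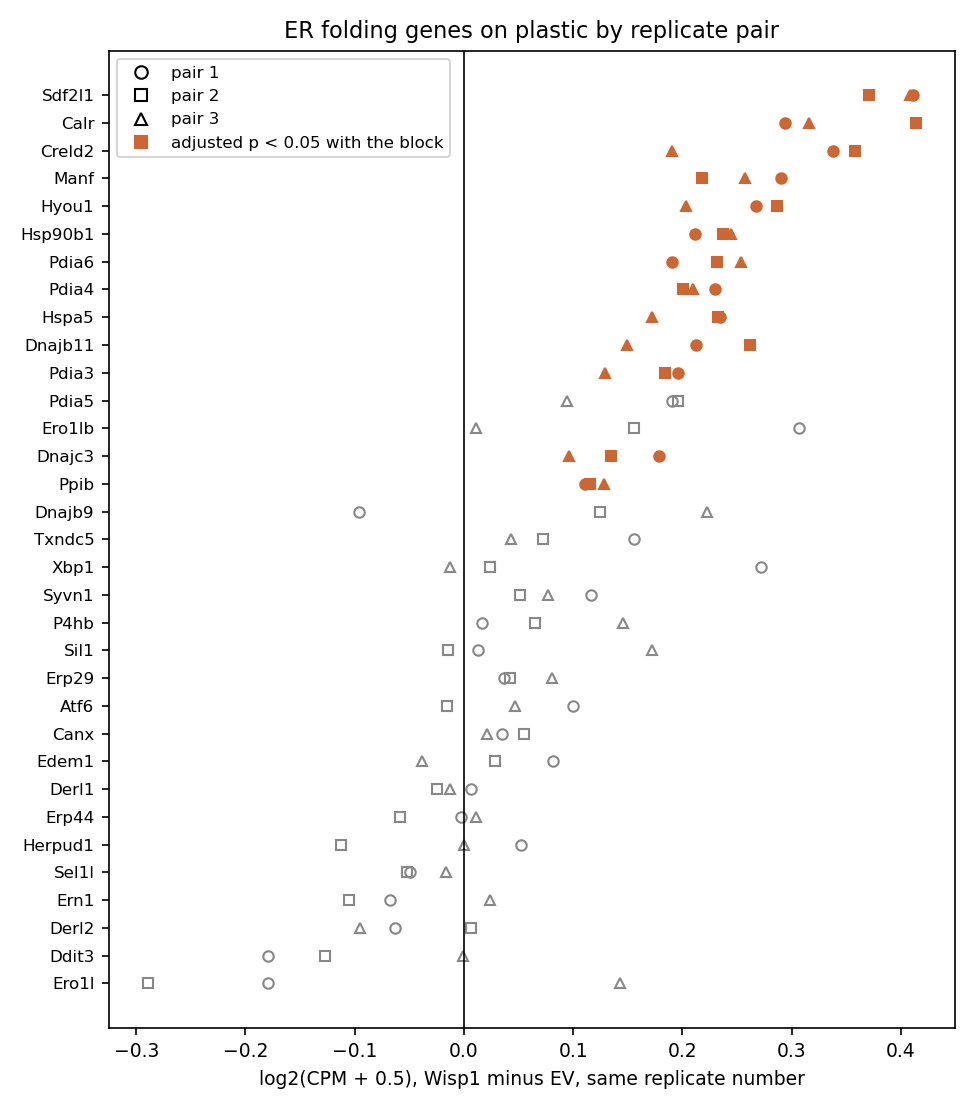
Difference of log2(CPM + 0.5) between Wisp1 and EV libraries of the same replicate number for the 33 tested ER genes, ordered by the change in the blocked fit, with pair 1 as circles, pair 2 as squares and pair 3 as triangles. Filled symbols mark the 13 genes past an adjusted p of 0.05 with the block, and all of their points lie to the right of 0.

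Few genes of the neighbouring steps of the secretory route passed. Of 31 genes of ER translocation and N-glycosylation 3 rose and 0 fell (background 2.08% and 1.08%), with a median log2 change of 0.04. They were Rpn1, a subunit of the oligosaccharyltransferase (1.09-fold, adjusted p = 0.03), Sec61a1, the pore of the translocon (1.07-fold, 0.041, but 0.085 after the GC and length correction) and the glucosidase gene Mogs (1.12-fold, 0.048, but 0.059 after correction). Each of these 3 calls was lost without pair 1, without pair 2 and without pair 3. Of 31 genes of ER to Golgi transport 3 rose and 0 fell, again with a median of 0.04: the cargo receptors Lman2 (1.1-fold, adjusted p = 0.013) and Lman1 (1.1-fold, 0.023) and Tmed9 (1.09-fold, 0.017). The calls of Lman1, Lman2 and Tmed9 were lost without pair 1 and without pair 2. With GC content and length corrected, translocation had 1 call and transport 5, all higher.

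A few epithelial genes fell in the Wisp1 line. Of 33 tested, 4 fell and 0 rose (background 1.08% lower and 2.08% higher), the median log2 change was -0.05, and 15 of the 33 were lower in 3 of 3 pairs while 3 were higher in 3 of 3 (18.9% and 21.3% of all tested genes). The genes that fell were Cldn4 and Cldn7, both claudins of tight junctions, Epcam, an epithelial adhesion molecule, and Esrp1, a splicing factor of epithelial cells. After correction for GC content and length 7 fell, with Cldn3 (adjusted p = 0.018), Jup (0.012) and Dsp (0.021) added; these were named after their values were seen. The same 4 falls were the calls among 11 tested markers of carcinoma epithelium, a list that shares these genes, whose median log2 change was -0.14. Without pair 1, 2 or 3 the falls were 2, 2 and 5.

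Cldn4 was at 103, 130.3 and 125 CPM in EV and 81.1, 92.4 and 103 CPM in Wisp1. The lowest EV library (replicate 1) and the highest Wisp1 library (replicate 3) nearly coincide, and within each number the Wisp1 library was lower, giving a fall of 1.3-fold (log2 change -0.37 ± 0.053 SE, adjusted p = 0.0068). Esrp1 was at 42.4, 43.2 and 41.8 CPM in EV and 34.7, 37.3 and 34.2 CPM in Wisp1. The groups did not overlap, and the gene was 1.2-fold lower (log2 change -0.27 ± 0.04 SE, adjusted p = 0.001). Cldn7 (16.4, 18 and 18.8 against 13.3, 14.1 and 14.8 CPM) was 1.27-fold lower and Epcam (113, 134 and 128 against 99.3, 109 and 113 CPM) 1.17-fold lower (adjusted p = 0.0073 and 0.0045). For Cldn7 and Epcam the call was lost without pair 1 and without pair 2.

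Cdh1, which encodes E-cadherin, was at 500.4, 533 and 513 CPM in EV and 469, 502 and 488 CPM in Wisp1 and did not pass (log2 change -0.09, adjusted p = 0.1). The keratins Krt8 and Krt18 did not pass (log2 change 0.04 and 0.03, adjusted p = 0.49 and 0.82). Of 14 tested mesenchymal genes 3 rose and 0 fell (background 2.08% and 1.08%). They were the intermediate filament gene Vim (2254, 2288 and 2086 against 2479, 2512 and 2443 CPM, 1.12-fold, adjusted p = 0.035, but 0.077 after the GC and length correction), the receptor tyrosine kinase gene Axl (1.1-fold, 0.0052) and the repressor gene Zeb2 (1.11-fold, 0.04). Without pair 1 or pair 2 none of these 3 passed, and without pair 3 the calls of Vim and Zeb2 were lost as well. The median of the mesenchymal list was 0.01, and Fn1, Snai1 and Zeb1 did not pass (adjusted p = 0.7, 0.35 and 0.52).

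Of 21 tested actin genes and targets of serum response factor (SRF), 9 rose and 0 fell in the Wisp1 line on plastic (background 2.08% and 1.08%), with a median log2 change of 0.09 that was 0.11, 0.11 and 0.04 in pairs 1, 2 and 3. The rises were 1.08-fold to 1.16-fold, the 12 other members had a median log2 change of 0.05, and for 0 of the 21 were the lines free of overlap. Zyx, which encodes the focal adhesion protein zyxin, was at 142, 146 and 193 CPM in EV and 171, 168 and 217 CPM in Wisp1. EV replicate 3 exceeded Wisp1 replicates 1 and 2, so the groups overlapped. The 1.16-fold rise passed with the block (adjusted p = 0.001). Without it the log2 change was alike, 0.21, but did not pass (adjusted p = 0.835). The calponin gene Cnn2 rose 1.13-fold, the filamin gene Flna 1.08-fold, and the cytoplasmic actins Actg1 and Actb 1.09-fold and 1.08-fold (adjusted p = 0.0011, 0.017, 0.018 and 0.019). The actin genes share long stretches of sequence, so the split of reads between them is uncertain. Cnn2 passed with any one pair left out, the call of Zyx was lost without pair 1, and those of Flna, Actg1 and Actb without pair 1 and without pair 2. After correction for GC content and length 7 of the list rose. Without pair 1 there was 1, without pair 2 there were 2 and without pair 3 there were 8.

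The inhibitors of differentiation Id1 and Id3, targets of bone morphogenetic protein (BMP) signalling, rose. Id1 was at 19.9, 15.6 and 19.6 CPM in EV and 24, 21.9 and 25.7 CPM in Wisp1, and no EV library reached the lowest Wisp1 library. The rise was 1.31-fold (log2 change 0.39 ± 0.06 SE, adjusted p = 0.0016). Id3, at 76.3, 64.5 and 85.8 CPM in EV and 90.1, 80.7 and 104 CPM in Wisp1, rose 1.21-fold (adjusted p = 6.5e-05). They were the 2 calls among 8 tested BMP targets (background 2.08% higher and 1.08% lower). Of the 8, 5 were higher in 3 of 3 pairs (21.3% of all tested genes were), and the list's median log2 change was 0.24. Both calls held in the corrected fit and with any one pair left out.

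**Figure D3:**
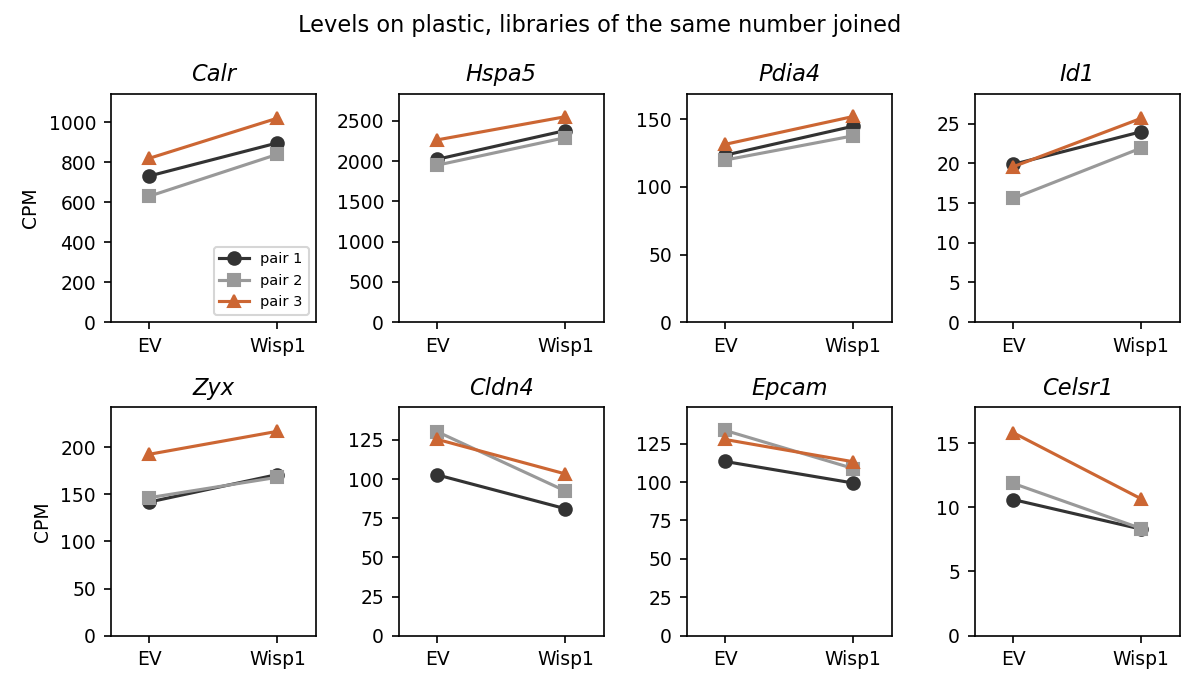
CPM of 8 named genes in the EV and Wisp1 lines on plastic, on linear axes that start at 0, with libraries of the same replicate number joined by a line. Calr, Hspa5, Pdia4, Id1 and Zyx slope upward in all 3 pairs and Cldn4, Epcam and Celsr1 slope downward, although levels also differ between numbers.

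Other genes were named for the size of their change, among blocked calls with a mean of at least 5 CPM. Akap12, a scaffold for protein kinase A, was at 31.4, 28.4 and 36.1 CPM in EV and 44.4, 39.1 and 53 CPM in Wisp1. The groups did not overlap, and the rise was 1.42-fold (log2 change 0.50 ± 0.042 SE, adjusted p = 1.4e-06), the largest rise after Wisp1 among those calls. Ly6e, a lipid-anchored surface protein, was at 15, 17.8 and 17.2 CPM in EV and 22, 22.5 and 22.9 CPM in Wisp1 and rose 1.34-fold (adjusted p = 0.0024).

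Mt2, a metallothionein that binds zinc and copper, differed between numbers by more than between lines. It was at 41.3, 42.4 and 16.8 CPM in EV and 55.7, 57.5 and 21.1 CPM in Wisp1, with replicate 3 lowest in both, and rose 1.32-fold within numbers (adjusted p = 0.00036). Podnl1, a leucine-rich repeat matrix protein, was at 48.8, 45.5 and 55.3 CPM in EV and 62.3, 57.8 and 73.9 CPM in Wisp1 and rose 1.29-fold (adjusted p = 1.6e-05). Sepw1, a selenoprotein, rose 1.24-fold (adjusted p = 6.4e-05). The calcium-binding protein gene S100a7a rose 1.31-fold, the Wnt inhibitor gene Apcdd1 1.26-fold and the galectin gene Lgals9 1.25-fold (adjusted p = 0.0094, 0.0079 and 0.0026). The calls of Ly6e and Lgals9 were lost without pair 1, that of S100a7a without pair 1 and without pair 2, and that of Apcdd1 without pair 2 and without pair 3, while Akap12, Mt2, Podnl1 and Sepw1 passed with any one pair left out.

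The 12 largest falls among those calls were from 1.3-fold to 1.41-fold. Gpm6b, a proteolipid membrane protein, was at 9.93, 8.96 and 10.1 CPM in EV and 6.41, 6.26 and 7.79 CPM in Wisp1, without overlap, and fell 1.41-fold (log2 change -0.50 ± 0.075 SE, adjusted p = 0.001). Celsr1, an atypical cadherin of planar cell polarity, was at 10.6, 11.9 and 15.8 CPM in EV and 8.29, 8.34 and 10.7 CPM in Wisp1. Wisp1 replicate 3 lay just above EV replicate 1, and within numbers the gene fell 1.41-fold (adjusted p = 0.00027). Mal2, which acts in apical transport of epithelial cells, was at 6.48, 8.16 and 6.42 CPM in EV and 4.26, 6.18 and 4.68 CPM in Wisp1 and fell 1.39-fold (adjusted p = 0.0032).

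Slc4a11, a membrane transporter of the bicarbonate transporter family, fell 1.37-fold and the sodium channel gene Scn3a 1.33-fold (adjusted p = 0.034 and 0.013). The call of Slc4a11 was lost whichever pair was left out, and that of Scn3a without pair 1 and without pair 3. Tslp, the epithelial cytokine thymic stromal lymphopoietin, was at 12.9, 13.1 and 11.4 CPM in EV and 10.2, 9.81 and 8.34 CPM in Wisp1 and fell 1.32-fold (adjusted p = 0.0033). Sh2d4a (1.38-fold), Moxd1 (1.34-fold), Mtus1 (1.33-fold), Mfap3l (1.31-fold), Olfm1 (1.31-fold) and Trp53inp2 (1.3-fold) completed the 12. Of the 12 falls, Gpm6b and Celsr1 passed with any one pair left out, and all 12 passed in the corrected fit.

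Fosl1, an AP-1 subunit, was at 111, 102 and 112 CPM in EV and 137, 124 and 132 CPM in Wisp1 and rose 1.21-fold (adjusted p = 1.8e-05). Plaur, the urokinase receptor, was at 69.4, 67.7 and 78.2 CPM in EV and 84.4, 83.1 and 89.6 CPM in Wisp1 and rose 1.19-fold (adjusted p = 9.9e-05). For neither gene did the lines overlap, and both calls held with any one pair left out. Csf1, the macrophage growth factor, rose 1.13-fold (adjusted p = 0.0034). Ccnd1, the cell cycle gene of cyclin D1 and a known Wnt target, was at 1581, 1567 and 1621 CPM in EV and 1761, 1739 and 1739 CPM in Wisp1 and rose 1.1-fold (adjusted p = 0.0037). Without pair 1 or pair 2 the calls of Csf1 and Ccnd1 were lost.

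Of 24 integrins and collagen receptors 3 rose and 0 fell (background 2.08% and 1.08%), with a median of 0.00. They were the laminin receptor subunit Itga6 (1.08-fold, adjusted p = 0.03), the syndecan Sdc3 (1.17-fold, 0.0067, but 0.07 after correction) and the endocytic receptor Lrp1 (1.14-fold, 0.041, but 0.069 after correction). Itgb1, Itga5 and Itgav did not pass (adjusted p = 0.2, 0.95 and 0.93). In the immediate early list Dusp5 also rose (1.17-fold, adjusted p = 0.028, but 0.086 after correction), in the protease list Adam8 (1.11-fold, 0.016, but 0.056) and in the NF-kB list Nfkb2 (1.08-fold, 0.034, but 0.14). The calls of Itga6 and Lrp1 were lost whichever pair was left out, that of Sdc3 without pair 2 and without pair 3, and those of Dusp5, Adam8 and Nfkb2 without pair 1 and without pair 2.

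Among matrix genes 1 of 25 rose and 1 fell, against 2.08% and 1.08% of all genes. The matrix glycoprotein gene Fbln2 rose 1.11-fold, from 561, 532 and 695 to 622, 581 and 799 CPM (adjusted p = 0.012, lost without pair 1, pair 2 or pair 3). Col3a1, a fibrillar collagen and a fibroblast marker, was low in EV at 0.747, 0.792 and 0.541 CPM and lower still in Wisp1 at 0.0265, 0.137 and 0 CPM, from 31, 61 and 28 reads against 1, 5 and 0 reads (adjusted p = 0.001). Col1a1 and Plod2 did not pass (adjusted p = 0.82 and 0.23), and the crosslinking enzyme gene Lox was too low to be tested. Of 18 targets of TGF-beta signalling 0 passed, and Smad7 and Tgfb1 did not pass either (adjusted p = 0.19 and 0.5). Of 10 Wnt targets, counted without Wisp1, 2 rose (Ccnd1 and Apcdd1) with a median of 0.01, and Axin2 was too low to be tested.

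Genes of amino acid supply that depend on Atf4 were lower where they passed: of 36, 3 fell and 0 rose (background 1.08% and 2.08%), with a median log2 change of -0.03. The cystine transporter gene Slc7a11 was at 39.5, 56.8 and 33.4 CPM in EV and 36.9, 48 and 27.1 CPM in Wisp1, highest in replicate 2 of both lines, and fell 1.16-fold (adjusted p = 0.011). The glycine transporter gene Slc6a9 fell 1.19-fold and the serine synthesis gene Psph 1.1-fold (adjusted p = 0.023 and 0.041). Without pair 1, 2 or 3 the falls of this list numbered 1, 0 and 3, and those without pair 3 included other members. The call of Psph was lost whichever pair was left out. That of Slc7a11 was lost without pair 2 and without pair 3, and that of Slc6a9 without pair 1 and without pair 2.

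Of 13 mitochondrially encoded genes 1 rose, mt-Atp6 (1.08-fold, adjusted p = 0.048), and 7 rose in the fit corrected for GC content and length. Over all genes 2.08% rose in the first fit and 1.56% in the corrected one. The share of the 13 mitochondrial genes in gene counts was 0.546 to 0.577% in EV and 0.561 to 0.594% in Wisp1. Of 36 interferon response genes 1 rose and 1 fell (background 2.08% and 1.08%). The rise was Trim30a, at under 2 CPM (1.72-fold, adjusted p = 0.048), and the fall Parp14 (1.14-fold, 0.029). The drug exporter gene Abcc1 (1.11-fold, adjusted p = 0.0033), the fatty acid synthase gene Fasn (1.09-fold, 0.034, but 0.13 after correction) and the DNA polymerase gene Pold1 (1.1-fold, 0.037, but 0.11 after correction) each rose alone in their lists. The calls of mt-Atp6, Trim30a, Parp14 and Pold1 were lost whichever pair was left out, and those of Abcc1 and Fasn without pair 1 and without pair 2. Of 28 mitotic, 30 hypoxia and glycolysis, 21 p53 target, 32 lysosomal and 23 antigen presentation genes, 0 passed. Leukocyte markers had a median log2 change of 0.44 over 11 tested genes at low levels, and 0 passed.

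**Figure D4:**
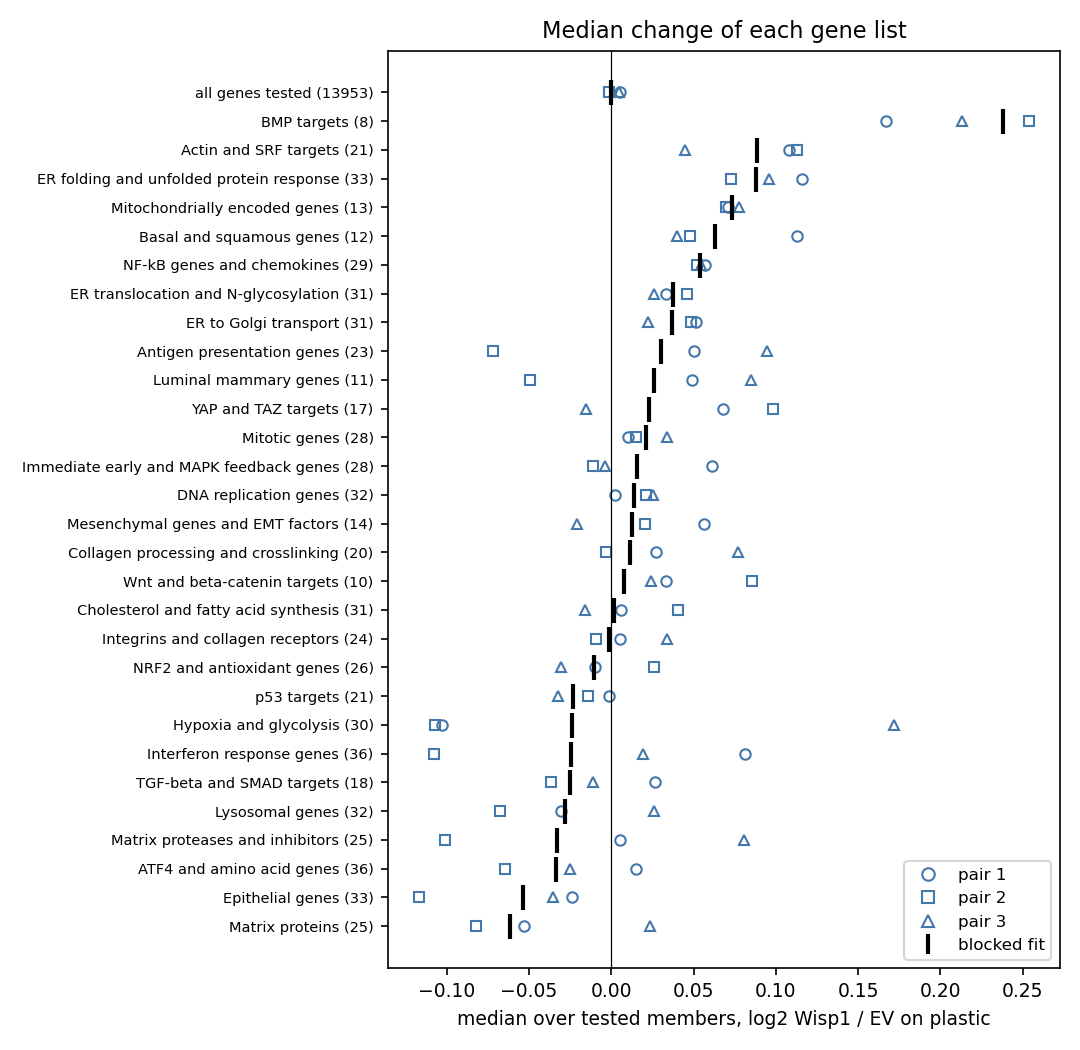
Median log2 change of the tested members of each gene list on plastic, without the CCN family and the cell type marker lists (number of members in brackets), in each replicate pair (open symbols) and in the blocked fit (bars), ordered by the blocked fit with all genes at the top. BMP targets, actin genes and ER folding genes have the highest medians at 0.24, 0.09 and 0.09, and matrix and epithelial genes the lowest at -0.06 and -0.05.

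The same 2 lines on collagen type I gave a second reading in other libraries. Without Wisp1, 439 genes had been called on plastic with the block, and 300 of them, 68.3%, had a change of the same sign on collagen, against 53.3% of all tested genes. The changes were smaller there: the median log2 change was 0.15 on plastic and 0.02 on collagen for the genes called higher, and -0.19 and -0.05 for those called lower. These genes were chosen for their plastic values. On collagen the blocked fit called 358 of 13953 genes (2.57%), with 227 higher (1.63%) and 131 lower (0.939%). Of the 439 plastic calls 46 were called in the same direction on collagen, which is 10.5% of the plastic calls and 12.9% of the 357 collagen calls without Wisp1, and 3 were called in the opposite direction. Wisp1 itself was at 15.3 ± 1.1 CPM in EV and 1088 ± 33.0 CPM in Wisp1 on collagen. The difference in its log2 change between the substrates, 1.94, did not pass (adjusted p = 0.43 without and 0.078 with the block).

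Of the 33 ER folding genes 11 rose on both substrates. In the collagen libraries 13 rose and 0 fell (background 1.63% higher and 0.939% lower), with a median log2 change of 0.12. Calls in the same direction on both substrates numbered 11 in this list and at most 1 in any other list, and the 11 genes were Hspa5, Hsp90b1, Calr, Pdia3, Pdia4, Pdia6, Sdf2l1, Manf, Creld2, Dnajb11 and Dnajc3. The blocked change on collagen also moved with GC content (Spearman's rho 0.155). After the GC and length correction all of the 11 but Dnajb11 (adjusted p = 0.054 on collagen) passed on both substrates. On collagen Hsp90b1 rose 1.18-fold, Calr 1.16-fold and Sdf2l1 1.29-fold (adjusted p = 9e-06, 0.00019 and 0.00076). Hyou1 and Ppib, which rose on plastic, did not pass on collagen (0.095 and 0.29), and Xbp1, which did not pass on plastic, did (1.23-fold, adjusted p = 0.00072). For none of these 3 genes did the difference between the substrates pass (adjusted p = 0.14, 0.4 and 0.11). Besides Wisp1, the named genes Akap12, Ly6e, Podnl1, Lgals9 and Sdc3 from outside the ER list rose on both substrates. Gpm6b, Celsr1, Mal2 and Esrp1 fell on both. At means of 0.17 and 0.37 CPM on plastic, BC068157 also rose and Col3a1 also fell on both. After the GC and length correction Sdc3 passed on neither substrate (adjusted p = 0.07 on plastic and 0.093 on collagen).

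Other genes passed on plastic and not on collagen. Of the 9 actin genes that rose on plastic, 0 passed on collagen, and the log2 changes there were 0.12 for Zyx, -0.0074 for Flna and -0.0021 for Actb. The difference between the substrates did not pass for these (adjusted p = 0.33, 0.11 and 0.13). It did pass for Id1 and Id3, whose log2 change on collagen was -0.08 and 0.00082, and for Fosl1 (0.0047), Plaur (0.0078), Mt2 (-0.03), Sepw1 (-0.04) and Csf1 (-0.05). Epcam, lower on plastic, had a log2 change of 0.03 on collagen, while Cldn4 had -0.03 and Cldn7 -0.17. All of these genes were chosen for their change on plastic, which favours a smaller change on collagen. Across all genes the difference between the substrates passed for 70 with the block (0.502%) and for 0 without it.

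**Figure D5:**
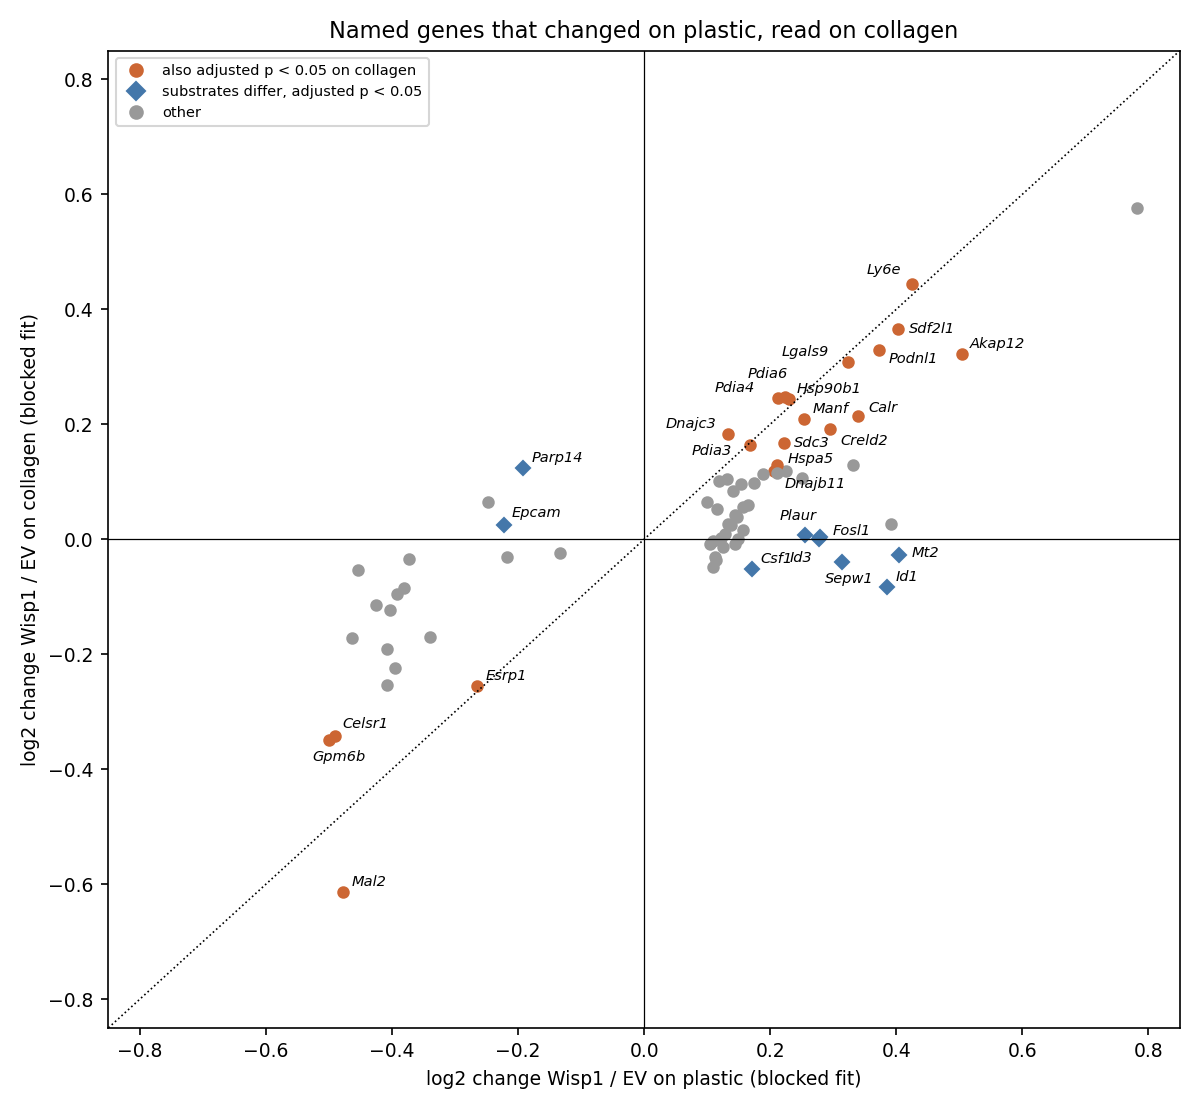
Log2 change of the Wisp1 against the EV line on plastic (x axis) and on collagen (y axis) in the blocked fit for the 74 genes of the naming rule called on plastic, without Wisp1, BC068157 and Col3a1, with a dotted line of equal change. The 20 genes also called on collagen (orange) lie near the dotted line, and the 9 genes whose change differed between the substrates (blue diamonds) lie near 0 or across it on the collagen axis.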

How the data were processed

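The 6 libraries on plastic (EV and Wisp1, 3 each) came from column-purified RNA, poly(A) selection and a stranded library kit, per the labels' protocols. The submitters' processing notes list STAR, BWA, HTSeq, CASAVA, limma, R 3.2.4 and mm9 without saying what each was used for. The authors deposited raw counts per gene symbol, and no source used here states their annotation or strand setting. The 5 entries that name no gene held 14.28 to 15.29% of the reads of these 6 libraries and were left out. Replicates of a line differed by more than counting error (chi-squared over its degrees of freedom 3.135 to 17.32).

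Counts were fitted with edgeR 4.0.16 in R 4.3.3 (robust quasi-likelihood F tests after filterByExpr and TMM) over the 12 libraries of the EV and Wisp1 lines with 4 group means, leaving 8 residual degrees of freedom. Adjusted p-values are Benjamini-Hochberg over 13953 genes with a threshold of 0.05, and a standard error is the change divided by the root of F. For CPM, TMM factors came from all 18 libraries. No label says what a replicate number marks. Deviations from the group means correlated between EV and Wisp1 libraries of the same number at 0.112, 0.201 and 0.203 on plastic and 0.458, 0.139 and 0.325 on collagen, all above 0.1, so the numbers were taken to pair the samples and a fit blocked by number within substrate (4 residual degrees of freedom) is given beside the fit without it. Between libraries of different numbers the correlations were -0.154 to -0.0262 on plastic and -0.391 to 0.111 on collagen. The collagen value of 0.111, for EV 3 and Wisp1 2, was also above 0.1. Deviations from a mean of 3 sum to 0, which pushes the values between different numbers down. The pairing rests on these correlations alone. After smoothing out GC content and length the same-number correlations on plastic were 0.103, 0.201 and 0.186.

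The members and gene lists were chosen with earlier results of these data known. Named genes are the CCN family, genes called without the block, the 12 largest rises and the 12 largest falls of the blocked fit with a mean of at least 5 CPM, 1 direction in 3 of 3 pairs and a symbol that is not a clone name, up to 6 called members of each of 34 lists, the ER folding list, and a fixed panel. A few of these genes are counted but not reported here by name. GC content and length came from the longest GENCODE M21 transcript (97.4% of tested genes matched), and that correction was chosen after seeing the data. Promoters came from RefSeq on GRCm38.p6, a build other than that of the counts, and were joined by symbol. Alternatives were DESeq2 1.42.0, limma-voom 3.58.1, other filters, scalings and library sets, thinning to the smallest library, and leaving out each library or pair. The procedure was also run on counts simulated from the blocked fit with the pairs kept, which cannot show whether the block is warranted.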

Additional observations from a re-analysis of the deposited data

Results flagged for a closer look

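For 9 of the named genes called on plastic the change between the Wisp1 and EV lines differed between collagen and plastic, by the interaction term of the blocked edgeR fit (Benjamini-Hochberg adjusted over all genes). Without the block the adjusted p of each was 0.973. The 9 genes were chosen for their change on plastic, which favours a smaller change on collagen. The difference (log2, collagen minus plastic) was -0.35 for Sepw1 (adjusted p = 0.0030), -0.27 for Fosl1 (0.0032), -0.28 for Id3 (0.0090), -0.25 for Plaur (0.012), -0.43 for Mt2 (0.013), -0.47 for Id1 (0.013) and -0.22 for Csf1 (0.023). Each of these 7 genes was higher in Wisp1 on plastic and had a log2 change between -0.08 and 0.01 on collagen. For Parp14 the difference was 0.32 (adjusted p = 0.029), with a log2 change of -0.19 on plastic and 0.12 on collagen, and for Epcam it was 0.25 (adjusted p = 0.047), with -0.22 and 0.03. The plastic calls of Csf1 and Epcam were lost without pair 1 and without pair 2, and that of Parp14 whichever pair was left out. With 3 libraries per group no library was tested as standing apart.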

How the results depend on the processing

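Without the block 2 genes were called on plastic and both were also called in the same direction on collagen. Those 2 counts were 1 and 1 with all 18 libraries, with a CPM of at least 1 in 3 libraries and with thinned counts, 18 and 7 in DESeq2, and 1 to 2 each when a library was left out. Fitted to the plastic libraries alone, 0 genes passed in edgeR (1010 at an unadjusted p under 0.05) and Wisp1 kept a log2 change of 4.21 with an adjusted p of 0.16. With the replicate block within substrate the counts were 440 and 47, with the block on the plastic libraries alone 506 genes, with the block and the GC and length correction 360 and 53. The block without pair 1, 2 or 3 gave 60, 53 and 365 genes, of which 20, 21 and 29 were also called on collagen. The block over all 4 groups, limma-voom, DESeq2 size factors, no filter and the GC and length correction without a block each gave 2. The log2 change of Wisp1 was 4.02 to 4.51 when a library was left out (adjusted p at most 0.00071). It passed in every alternative except the plastic libraries alone without a block and the block without pair 2, where it was 4.22 (adjusted p = 0.057). The log2 change of Cyr61 was -0.10 to 0.40 when a library was left out (0.10 with all), of Ctgf -0.29 to 0.11 (-0.12) and of Slc7a11 -0.45 to 0.029 (-0.23). Of 1757 values of 80 single genes under 22 alternatives, 1403 kept direction and side of the threshold, 342 passed where they had not, 332 of them under a replicate block, 8 lost the threshold (BC068157) and 4 changed sign. The blocked calls rest on 4 residual degrees of freedom, and 1 line per genotype limits what they can show.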
